A study of Mus musculus with 15 samples.

Results

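The genes described here are those of the mouse major histocompatibility complex (MHC) and of antigen presentation, which display peptides at the cell surface. They were all symbols that start with H2- (38 genes) plus 17 named partners, and they numbered 55 of the 21886 genes in the table of Setd2 and Ezh2 deletions. By role they were 27 class I heavy chains and class I-like chains, 15 partners of class I, 12 class II genes and H2-Ke6, a gene of the same region that is not an MHC molecule. The table of Ezh2 K735R listed 37 of them among 14301 genes.

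RNA was sequenced from prostate epithelial cells of C57BL/6 mice grown as organoids, in 6 groups of 2 libraries. Of these, 4 groups came from 3-month-old mice: Setd2PC-/-;Ezh2PC-/- (Double null), Setd2PC-/- (Setd2 null), Ezh2PC-/- (Ezh2 null) and a group with neither deletion (Control). Each of their libraries was a pool of RNA from 3 biological replicates. The other 2 groups came from 2-month-old mice, one with Ezh2K735R (Ezh2 K735R) and one with the unaltered enzyme (wild-type Ezh2), for which no pool size is given. The labels do not expand PC or name the promoter that drove the deletions. With 2 pools a group, p-values measure the spread between pools and not between animals. The Setd2 enzyme places trimethylation on histone H3 lysine 36. Ezh2 is the enzyme of Polycomb repressive complex 2 and methylates histone H3 lysine 27. In K735R a lysine of Ezh2 is replaced by arginine. The comparisons ask how antigen presentation genes differed when either enzyme, or both, had been deleted, and when Ezh2 carried the substitution.

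Class I molecules consist of a heavy chain, such as H2-K1 or H2-D1, and the light chain B2m, and they present peptides made inside the cell to CD8+ T cells. The proteasome cuts the peptides, with subunits exchanged for Psmb8, Psmb9 and Psmb10 in its immune form, Tap1 and Tap2 carry them into the endoplasmic reticulum, and tapasin (Tapbp), Calr, Canx and Pdia3 help to load them. Class II molecules, made of chains such as H2-Aa and H2-Ab1 with the invariant chain Cd74, present peptides from endosomes and are typical of professional antigen-presenting cells. Interferons induce both pathways, Nlrc5 is the main transactivator of class I genes and Ciita that of class II genes.

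Class I promoters carry a kB site, an interferon-stimulated response element and the X2 and Y boxes bound by the complexes that recruit Nlrc5. RefSeq windows of 300 bases, from 250 before to 50 after the start on GRCm38.p6, were found for 44 of the 55 members and 24 of the 31 members that passed the filter on low values. Searched on both strands, with no overlap between matches of different motifs in the windows printed here, the Y box core CCAAT was in 18 of these 24 and in 37.4% of all 32851 windows. The X2 box core TGACG was in 12 of 24 members and in 20.8% of all windows, and the core GAAANNGAA of the interferon-stimulated response element was in 5 of 24, against 8.56%. The kB motif GGGANTCCC was in 4 of 24, namely H2-D1, H2-K1, H2-Q6 and H2-Q7, against 0.767%. These counts describe letters, not bound sites. The 5 windows printed here belong to members whose levels are compared in the text, with capitals for the motif matches on either strand. H2-Q10, printed beside its relatives H2-K1 and H2-Q7, has none of these letters in its window, from which nothing follows about the factors. The Tap1 window overlaps that of Psmb9, which is transcribed in the opposite direction. Their CCAAT and TGACG matches are the same bases, so the counts for these motifs take in the same site for both genes.
B2m, chr2:122147437-122147736, plus strand: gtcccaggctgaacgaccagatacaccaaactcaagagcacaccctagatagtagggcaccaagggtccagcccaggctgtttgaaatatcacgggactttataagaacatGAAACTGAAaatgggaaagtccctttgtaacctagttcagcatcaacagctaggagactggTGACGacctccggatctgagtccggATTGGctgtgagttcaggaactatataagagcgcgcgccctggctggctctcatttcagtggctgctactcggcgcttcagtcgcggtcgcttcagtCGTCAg
H2-K1, chr17:34000298-34000597, minus strand: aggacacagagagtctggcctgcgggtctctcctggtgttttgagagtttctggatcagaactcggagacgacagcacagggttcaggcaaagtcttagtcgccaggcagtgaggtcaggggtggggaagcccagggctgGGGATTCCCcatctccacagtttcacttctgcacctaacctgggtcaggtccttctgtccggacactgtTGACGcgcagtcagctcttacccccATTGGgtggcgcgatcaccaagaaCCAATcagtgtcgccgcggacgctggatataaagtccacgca
H2-Q7, chr17:35438905-35439204, plus strand: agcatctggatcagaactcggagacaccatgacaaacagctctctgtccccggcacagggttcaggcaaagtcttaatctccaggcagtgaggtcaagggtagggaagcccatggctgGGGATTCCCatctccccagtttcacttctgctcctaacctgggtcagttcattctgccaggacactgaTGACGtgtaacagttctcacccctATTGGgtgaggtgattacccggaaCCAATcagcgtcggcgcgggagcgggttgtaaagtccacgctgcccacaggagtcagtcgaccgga
H2-Q10, chr17:35469839-35470138, plus strand: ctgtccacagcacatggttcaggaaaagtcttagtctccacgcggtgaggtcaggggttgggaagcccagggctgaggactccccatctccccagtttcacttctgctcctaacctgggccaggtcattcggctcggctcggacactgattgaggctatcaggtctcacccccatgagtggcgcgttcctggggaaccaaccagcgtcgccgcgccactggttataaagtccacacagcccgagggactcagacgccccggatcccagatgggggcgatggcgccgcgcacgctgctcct
Tap1, chr17:34187306-34187605, plus strand: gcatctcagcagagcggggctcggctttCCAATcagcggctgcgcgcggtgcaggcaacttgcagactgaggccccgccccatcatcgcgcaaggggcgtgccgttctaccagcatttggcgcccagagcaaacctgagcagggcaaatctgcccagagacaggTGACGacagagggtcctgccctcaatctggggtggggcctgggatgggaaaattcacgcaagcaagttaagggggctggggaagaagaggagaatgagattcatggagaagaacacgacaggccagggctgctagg

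In the libraries as a whole, Setd2 stood at 8.99 and 7.54 RPKM (reads per kilobase, scaled to library size) in Double null and 8.75 and 10.3 RPKM in Setd2 null, against 14.6 and 11.6 RPKM in Ezh2 null and 17 and 16.1 RPKM in Control. Its difference between Setd2 null and Control (log2 fold change -0.74) missed the threshold, with an adjusted p of 0.0563. Ezh2 stood at 16.6 and 14.2 RPKM in Double null and 13.8 and 11.6 RPKM in Ezh2 null, against 24.2 and 20.7 RPKM in Setd2 null and 19.4 and 20.8 RPKM in Control. A gene-level value also holds reads outside a deleted part, and counts cannot show the K735R substitution. Reads recovered on listed genes numbered 46871235 to 54152769 in the Ezh2-deleted libraries and 29660365 to 34847038 in the other libraries, so depth and Ezh2 deletion cannot be told apart by group. Epithelial markers were high in all 8 libraries (10 of 10 detected, summed 3651 to 5340 RPKM). The sum of 21 immune cell markers was 52.9 to 54.6 RPKM in Double null, 34.8 to 41.2 RPKM in Setd2 null, 55.1 to 65.6 RPKM in Ezh2 null and 23.8 to 26 RPKM in Control, most of it Cd52 in the Ezh2-deleted libraries and Cd68 in the others. The macrophage gene Lyz2 reached 7.69 and 8.2 RPKM in Ezh2 null and 2.67 and 3.02 RPKM in Double null, and was at 0 in Setd2 null and Control. The leukocyte gene Ptprc was at most 0.0582 RPKM in any library. The 10 stromal markers summed to 29.3 to 34.5 RPKM in the Ezh2-deleted libraries and 8.16 to 13.5 RPKM in the others, but its genes disagreed. Dcn had 12.6 to 25.5 RPKM in the Ezh2-deleted libraries against 0.907 to 1.3 RPKM in the others, while Postn had 0.0178 to 0.223 RPKM in the Ezh2-deleted libraries against 6 to 10.3 RPKM in the others. The part of depth, immune cells or stroma in any result was not tested, and in bulk RNA fewer cells of a type and less RNA per cell cannot be told apart.

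Of the 55 members, 31 averaged 1 RPKM or more across all 8 libraries and were tested: 13 heavy chains, 15 partners, 2 class II genes and H2-Ke6. A further 13 were above 0 in some library but under the filter, and 11 were at 0 in all 8. Members were called at a Benjamini-Hochberg adjusted p of 0.05 in limma, and the shares of all tested genes called are given beside their counts. Comparisons with the same Control libraries are not independent of each other.

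Deletion of Ezh2 went with lower levels in much of the class I pathway. In Ezh2 null against Control, 14 of 31 members were lower (45.2%, against 20.5% of all genes) and 2 were higher (6.45%, against 36.1%), and the members' median log2 fold change was -0.52, against 0.18 over all genes. Double null against Setd2 null, the same deletion on a Setd2-deleted background, had 22 lower (71%, against 19.4%) and 4 higher (12.9%, against 35.6%), with a median of -0.87 against 0.18. In Double null against Control 17 were lower (54.8%, against 20.0%) and 3 higher (9.68%, against 34.2%), with medians of -0.71 and 0.15. The shift of 0.15 to 0.18 in the median of all genes moved to between -0.01 and 0.02 with quantile normalization, and no member called in these comparisons changed direction under the alternatives run.

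Setd2 deletion alone gave few calls. Setd2 null against Control had 1 member higher (3.23%, against 0.379% of all genes) and 0 lower (against 0.688%). At an unadjusted p of 0.05, 7 of 31 members passed in that comparison, and 23 of 31 fold changes were above 0, with a median of 0.29 against -0.02 over all genes. Double null against Ezh2 null had 2 higher (6.45%, against 3.79%) and 1 lower (3.23%, against 2.70%), with a median of -0.18 against -0.02. The interaction, which asks whether Setd2 deletion had a different effect where Ezh2 was deleted, was positive for 2 members (against 1.69%) and negative for 2 (against 0.900%). Its median was -0.42 over the members and -0.01 over all genes. H2-Q10 was 1 of the 2 members higher in Double null against Ezh2 null and 1 of the 2 with a positive interaction. It passed the filter only through Double null, its highest group (0.829 RPKM on average in the other 6 libraries). These counts thus rest in part on the group where it is high, as do those of higher members in Double null against Setd2 null and against Control.

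**Figure D1:**
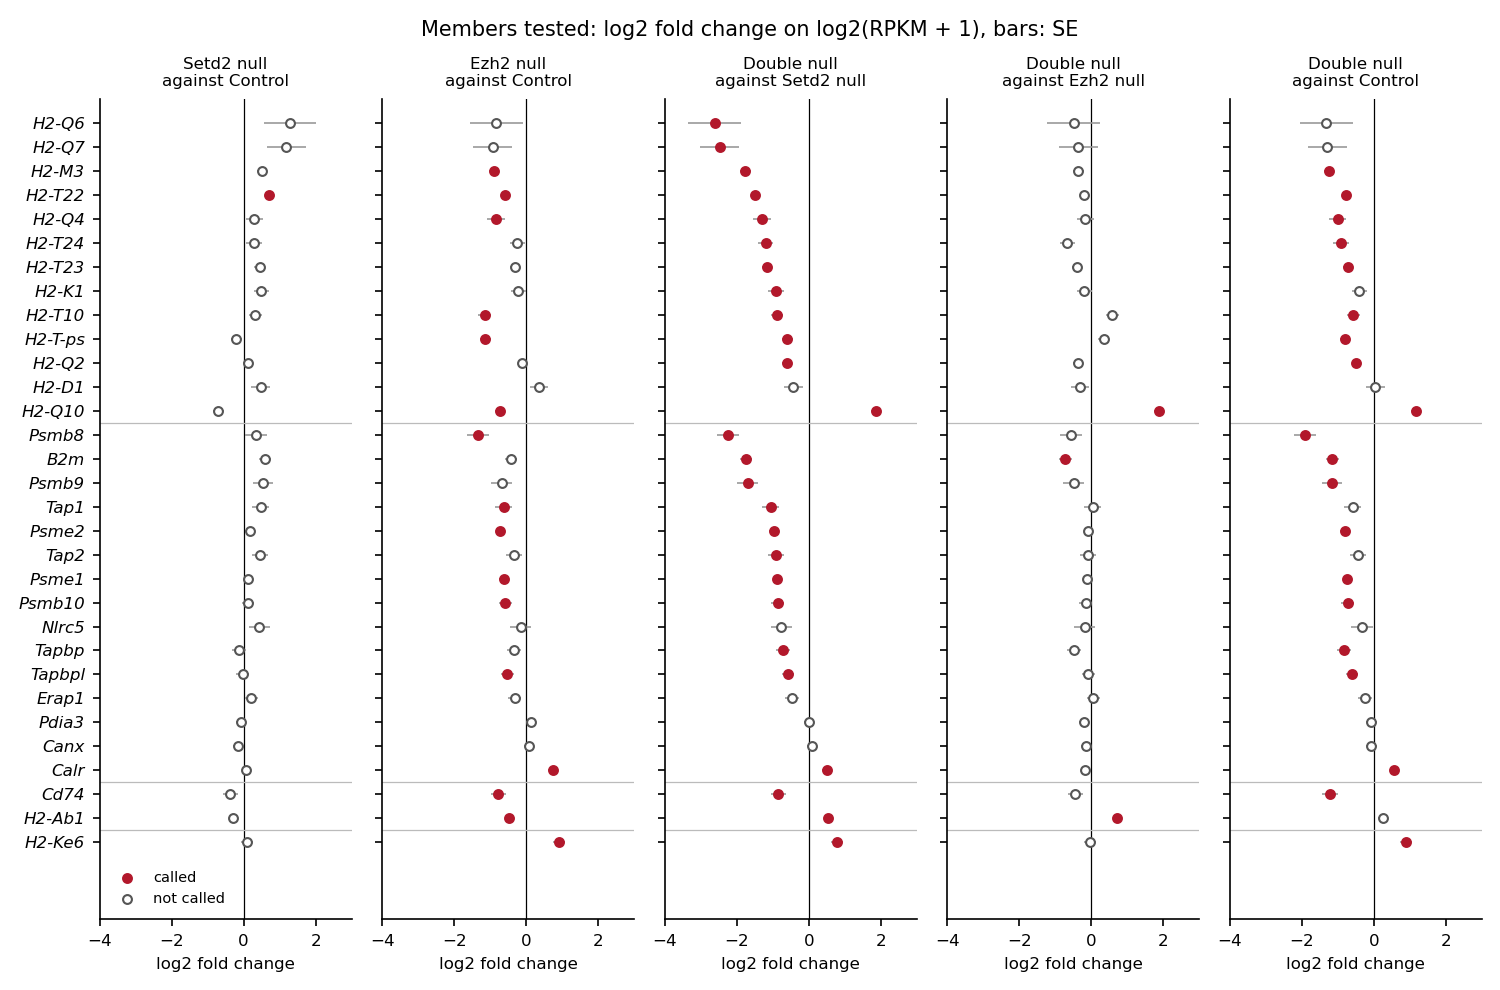
Log2 fold change on the log2(RPKM + 1) scale of the 31 members tested, in 5 comparisons, with bars of 1 standard error and filled points for members called; grey lines part heavy chains, class I partners, class II genes and H2-Ke6. Most heavy chains and partners lie left of 0 where Ezh2-deleted groups are set against Ezh2-intact ones, with 22 of 31 members called lower in Double null against Setd2 null.

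Among the heavy chains, which form the peptide-binding groove, 6 of 13 fell in Ezh2 null against Control (46.2%, against 20.5% of all genes) and 0 rose (against 36.1%). In Double null against Setd2 null 11 of 13 fell (84.6%, against 19.4%) and 1 rose (7.69%, against 35.6%). H2-T22, a class I-like chain recognised by some gamma delta T cells, stood at 21.6 and 21.1 RPKM in Double null, 58.5 and 64.2 RPKM in Setd2 null, 24.4 and 24.6 RPKM in Ezh2 null and 36.6 and 37.8 RPKM in Control. Its groups did not overlap, with Setd2 null highest and Double null lowest. Its log2 fold change was -0.58 ± 0.114 (SE) in Ezh2 null against Control, a fall at an adjusted p of 0.00191, and it fell too in Double null against Setd2 null (-1.48 ± 0.114, adjusted p = 5.86e-06).

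H2-T23 encodes Qa-1, which presents leader peptides of other class I chains to the CD94/NKG2 receptors of natural killer cells. Its levels were 67.6 and 80.1 RPKM in Double null, 162.4 and 166.2 RPKM in Setd2 null, 90.2 and 104.9 RPKM in Ezh2 null and 127.8 and 114.9 RPKM in Control. The groups again did not overlap, and H2-T23 fell in Double null against Setd2 null (-1.15 ± 0.141, adjusted p = 0.000122) and against Control (-0.71 ± 0.141, adjusted p = 0.00229). In Ezh2 null against Control it had a log2 fold change of -0.31 with an adjusted p of 0.0838, which passed under quantile normalization (adjusted p = 0.024), median-ratio scaling (0.0182) and edgeR on recovered reads (0.0138), in a range of 0.0138 to 0.362 over the alternatives.

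H2-M3 presents N-formylated peptides of bacteria. It had 1.33 and 1.16 RPKM in Double null, 7.02 and 6.23 RPKM in Setd2 null, 1.96 and 1.8 RPKM in Ezh2 null and 5.05 and 3.71 RPKM in Control. All 4 Ezh2-deleted libraries lay below all 4 Ezh2-intact ones. H2-M3 fell in Ezh2 null against Control (-0.89 ± 0.147, adjusted p = 0.000695) and in Double null against Setd2 null (-1.76 ± 0.147, adjusted p = 9.39e-06). H2-Q4, a chain of the Q region, had 21.1 and 21.9 RPKM in Double null, 39.7 and 74 RPKM in Setd2 null, 23.5 and 25 RPKM in Ezh2 null and 40.2 and 48.2 RPKM in Control. Its Ezh2-deleted libraries also lay below all the others, and it fell in Double null against Setd2 null (-1.30 ± 0.239, adjusted p = 0.00144). Its fall in Ezh2 null against Control (-0.84 ± 0.239, adjusted p = 0.0141) did not pass without Ezh2 null library 1 (0.0637), Ezh2 null library 2 (0.053) or Control library 2 (0.0956).

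The T-region chains H2-T10, H2-T24 and the pseudogene H2-T-ps were less abundant. H2-T10 had 1.2 and 1.22 RPKM in Double null, 2.61 and 3.62 RPKM in Setd2 null, 0.373 and 0.588 RPKM in Ezh2 null and 1.81 and 2.81 RPKM in Control. It fell in Ezh2 null against Control (-1.15 ± 0.177, adjusted p = 0.000467) and in Double null against Setd2 null (-0.88 ± 0.177, adjusted p = 0.00231). Double null lay above Ezh2 null without overlap, a difference not called in the main fit. It passed as higher with a pseudocount of 0.1 (adjusted p = 0.0416), edgeR on recovered reads (0.0465) and the replicate block (0.0338). H2-T10 is a close relative of H2-T22, and how reads shared between such copies were divided is not given in the sources used here. H2-T-ps had 2.19 and 2.44 RPKM in Double null, 4.08 and 3.95 RPKM in Setd2 null, 1.38 and 1.87 RPKM in Ezh2 null and 4.16 and 5.42 RPKM in Control. It fell in Ezh2 null against Control (-1.14 ± 0.15, adjusted p = 0.00017), in Double null against Setd2 null (-0.60 ± 0.15, adjusted p = 0.00766) and in Double null against Control (-0.80 ± 0.15, adjusted p = 0.00168). H2-T24 had 1.5 and 1.33 RPKM in Double null, 3.38 and 6.07 RPKM in Setd2 null, 3.31 and 2.42 RPKM in Ezh2 null and 3.34 and 3.78 RPKM in Control. Double null was the lowest of its groups, with a fall against Setd2 null (-1.20 ± 0.213, adjusted p = 0.00112).

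The classical heavy chains H2-K1 and H2-D1, which carry most peptides seen by CD8+ T cells, were the most abundant of the heavy chains by RPKM. H2-K1 lies on chromosome 17 (mm10, 33996012 to 34000341, minus strand) and had 259.1 and 326 RPKM in Double null, 458.8 and 648.3 RPKM in Setd2 null, 292.7 and 378 RPKM in Ezh2 null and 361.4 and 415.9 RPKM in Control. Its Setd2 null libraries lay above all others and its Double null libraries below Control, while Ezh2 null overlapped with both Double null and Control. H2-K1 fell in Double null against Setd2 null (-0.91 ± 0.209, adjusted p = 0.00497), while its values of -0.22 in Ezh2 null against Control (adjusted p = 0.391) and 0.49 in Setd2 null against Control (adjusted p = 0.402) did not pass. Its value of -0.41 in Double null against Control (adjusted p = 0.12, in a range of 0.0166 to 0.441) passed with quantile normalization (0.0489), with edgeR on recovered reads (0.0464) and in a fit of only the groups compared (0.0271). H2-D1 had 351.1 and 466.8 RPKM in Double null, 429.4 and 695.8 RPKM in Setd2 null, 426.2 and 591.4 RPKM in Ezh2 null and 358.5 and 431.8 RPKM in Control. Its groups overlapped in every pair, and no comparison called it. Its value in Ezh2 null against Control was above 0, unlike those of the other heavy chains tested (0.35 ± 0.256, adjusted p = 0.268, in a range of 0.0496 to 0.772). Without Setd2 null library 1, H2-D1 was called lower in Double null against Setd2 null (-0.78, adjusted p = 0.0386), in a range of 0.0238 to 0.797 over the alternatives.

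**Figure D2:**
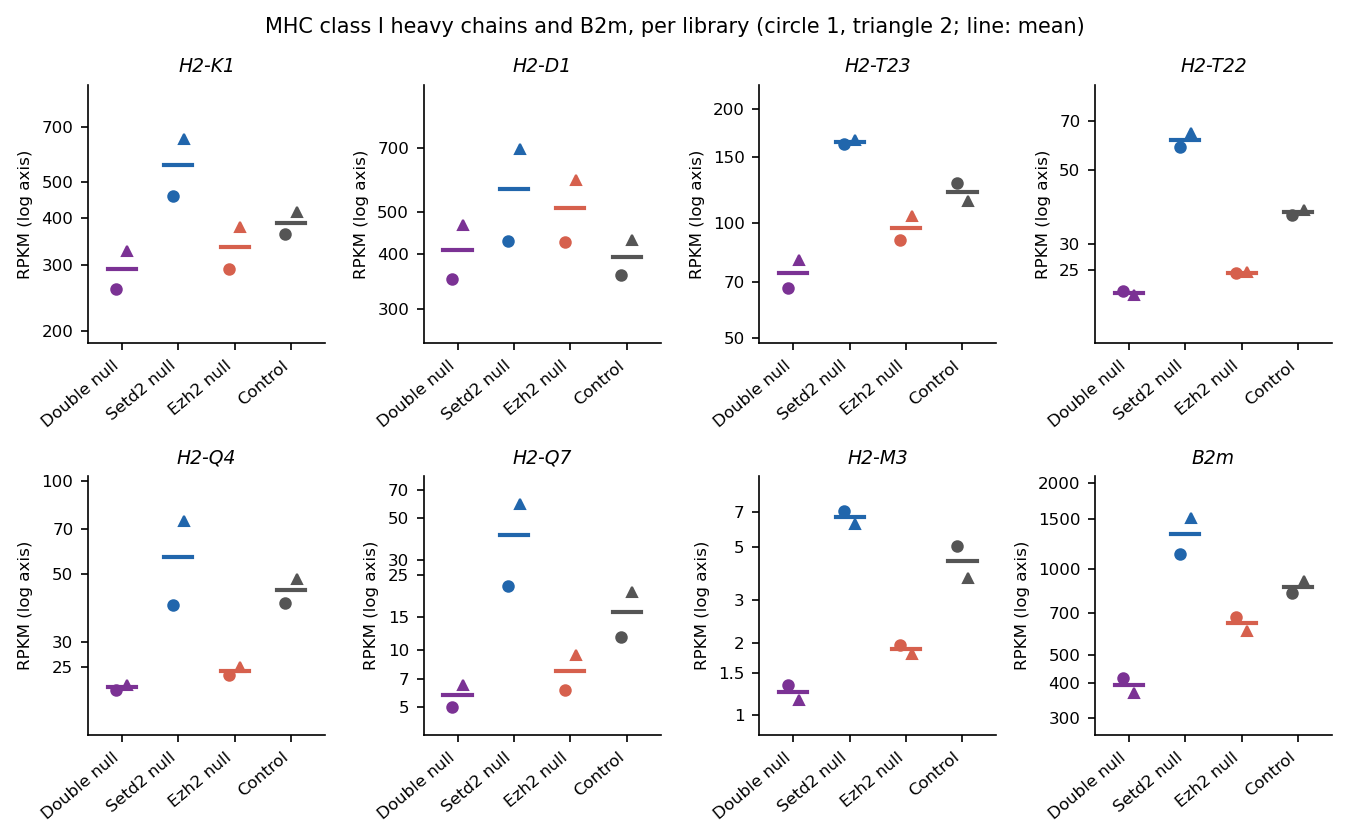
Levels of 7 class I heavy chains and B2m in RPKM on a log axis, 1 panel a gene, by group; the circle is library 1, the triangle library 2 and the line their mean. B2m stood at 415.1 and 367.6 RPKM in Double null against 1135 and 1517 RPKM in Setd2 null, and H2-D1 overlapped between groups.

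The near-identical Q-region chains H2-Q6 and H2-Q7 spread widely within groups, and H2-Q7 was singled out after its values were seen. H2-Q7 had 4.96 and 6.54 RPKM in Double null, 21.9 and 59.6 RPKM in Setd2 null, 6.12 and 9.41 RPKM in Ezh2 null and 11.7 and 20.2 RPKM in Control, so that its Ezh2-deleted libraries lay below all others while library 2 of Setd2 null was 2.72 times library 1. H2-Q7 fell in Double null against Setd2 null (-2.47 ± 0.54, adjusted p = 0.0134), but not without Double null library 1 (0.0869), without Double null library 2 (0.0726) or in a fit of only the groups compared (0.1). H2-Q6 behaved likewise in that comparison (-2.61 ± 0.729, adjusted p = 0.0356), with its call lost without Setd2 null library 2 (0.0571), Double null library 1 (0.157) or Double null library 2 (0.115), and in a fit of only the groups compared (0.126). Reads of these 2 genes may have been divided between them. H2-Q2 ranged from 2.38 to 4.89 RPKM over the 8 libraries. Of the 14 heavy chains under the filter, 7 were at 0 in every library, and H2-Bl is described with the class II genes of similar level.

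B2m, the light chain that pairs with class I heavy chains, lies on chromosome 2 (mm10, 122147687 to 122153082, plus strand). It had 415.1 and 367.6 RPKM in Double null, 1135 and 1517 RPKM in Setd2 null, 682.3 and 609.2 RPKM in Ezh2 null and 828.8 and 908.8 RPKM in Control. The 4 groups did not overlap, with Double null lowest and Setd2 null highest. B2m fell in Double null against Setd2 null (-1.75 ± 0.172, adjusted p = 2.87e-05) and against Control (-1.15 ± 0.172, adjusted p = 0.000431). In Ezh2 null against Control its value was -0.43 ± 0.172 with an adjusted p of 0.0573, which ranged from 0.00966 to 0.248 over the alternatives and passed with quantile normalization (0.012). Its fall in Double null against Ezh2 null (-0.72 ± 0.172, adjusted p = 0.0368) was lost without any 1 of the 4 libraries compared, with adjusted p-values of 0.207 without Ezh2 null library 1, 0.0875 without Ezh2 null library 2, 0.0874 without Double null library 1 and 0.241 without Double null library 2. It was also lost with no filter (0.0645) and in a fit of only the groups compared (0.0598).

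Tap1 and Tap2 form the transporter that carries peptides into the endoplasmic reticulum. Tap1 had 15.8 and 20.4 RPKM in Double null, 29.4 and 50.2 RPKM in Setd2 null, 15.9 and 19.1 RPKM in Ezh2 null and 24.7 and 30.5 RPKM in Control. All Ezh2-deleted libraries lay below all Ezh2-intact ones, and Tap1 fell in Double null against Setd2 null (-1.05 ± 0.237, adjusted p = 0.00441). Its fall in Ezh2 null against Control (-0.63 ± 0.237, adjusted p = 0.0452) was lost without Ezh2 null library 1 (0.185), Ezh2 null library 2 (0.0699), Control library 1 (0.068) or Control library 2 (0.226), and with no filter (0.109). Tap2 had 10.9 and 14 RPKM in Double null, 20.5 and 28.1 RPKM in Setd2 null, 11.4 and 15.6 RPKM in Ezh2 null and 14.7 and 20.4 RPKM in Control. Its Ezh2 null and Control libraries overlapped, and it fell in Double null against Setd2 null (-0.90 ± 0.219, adjusted p = 0.00653), a call lost without Setd2 null library 2 (0.0658). Tapbp, the tapasin that bridges the transporter and empty class I molecules, had 67.9 and 78.9 RPKM in Double null, 97.8 and 147.7 RPKM in Setd2 null, 96.1 and 109.4 RPKM in Ezh2 null and 123.6 and 138 RPKM in Control. Double null was lowest, with a fall against Control (-0.83 ± 0.192, adjusted p = 0.00539) that no left-out library removed. Its fall against Setd2 null (-0.71 ± 0.192, adjusted p = 0.0116) was lost without Setd2 null library 2 (0.0626) or Double null library 1 (0.0562).

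The general chaperones of the endoplasmic reticulum did not share this fall. Calr, calreticulin, rose in Ezh2 null, with 531.9 and 534.1 RPKM against 324.9 and 313.1 RPKM in Control (0.74 ± 0.125, adjusted p = 0.000836). It also stood at 466.7 and 479.9 RPKM in Double null, against 329.3 and 341.5 RPKM in Setd2 null (0.50 ± 0.125, adjusted p = 0.00809), a call lost without Double null library 2 (0.0594), with median-ratio scaling (0.068), with edgeR on recovered reads (0.0607) and in a fit of only the groups compared (0.0545). Canx and Pdia3, which fold and oxidise new class I chains, were called in no comparison and ranged from 107.4 to 146.1 RPKM and from 228.7 to 308.5 RPKM. Erap1, the aminopeptidase that trims peptides to length, ranged from 6.65 to 12.8 RPKM and was not called either. It was called lower in Ezh2 null against Control without Ezh2 null library 1 (-0.57, adjusted p = 0.0272) and in Double null against Setd2 null without Double null library 1 (-0.67, adjusted p = 0.0224). Quantile normalization, median-ratio scaling and edgeR on recovered reads called it lower in both comparisons, with adjusted p-values of 0.0461 to 0.0466 in Ezh2 null against Control and 0.0152 to 0.0161 in Double null against Setd2 null, where a fit of only the groups compared did so too (0.0338). Over the alternatives its adjusted p ranged from 0.0272 to 0.812 and from 0.0152 to 0.346 in these 2 comparisons. Tapbpl, a tapasin relative that edits peptides, had lower called values in the 3 comparisons of an Ezh2-deleted with an Ezh2-intact group, each lost without 1 or more libraries. Its adjusted p was 0.0249 in Ezh2 null against Control (0.151 without Ezh2 null library 1, 0.093 without Control library 1 and 0.0996 without Control library 2). It was 0.0164 in Double null against Setd2 null (0.115 without Setd2 null library 2 and 0.0908 without Double null library 1). In Double null against Control it was 0.0136 (0.0768 without Double null library 1, 0.0629 without Control library 1 and 0.0662 without Control library 2).

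The immunoproteasome subunits Psmb8, Psmb9 and Psmb10 replace Psmb5, Psmb6 and Psmb7 in cells under interferon. Psmb8 had 6.11 and 7.97 RPKM in Double null, 27.6 and 49.7 RPKM in Setd2 null, 8.57 and 13.5 RPKM in Ezh2 null and 25.1 and 33.6 RPKM in Control. Every Ezh2-deleted library lay below every Ezh2-intact one. Psmb8 fell in Ezh2 null against Control (-1.35 ± 0.307, adjusted p = 0.0064), in Double null against Setd2 null (-2.25 ± 0.307, adjusted p = 0.000508) and in Double null against Control (-1.91 ± 0.307, adjusted p = 0.00127), and no alternative removed these calls. Psmb9 had 4.03 and 7.3 RPKM in Double null, 15.1 and 26.3 RPKM in Setd2 null, 7.31 and 8.87 RPKM in Ezh2 null and 13.1 and 13.8 RPKM in Control. The same separation held, and Psmb9 fell in Double null against Setd2 null (-1.70 ± 0.284, adjusted p = 0.0012). Its value in Ezh2 null against Control was -0.68 ± 0.284 with an adjusted p of 0.0717, in a range of 0.00136 to 0.284. In Double null against Control it was called lower (-1.16 ± 0.284, adjusted p = 0.00852), but not without Control library 2 (0.0522).

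Psmb10 had 7.62 and 9.51 RPKM in Double null, 14.6 and 18.1 RPKM in Setd2 null, 8.07 and 11.3 RPKM in Ezh2 null and 14 and 15.7 RPKM in Control, again with no overlap between Ezh2-deleted and Ezh2-intact libraries. It fell in Double null against Setd2 null (-0.86 ± 0.179, adjusted p = 0.00294). Its call in Ezh2 null against Control (-0.58 ± 0.179, adjusted p = 0.0195) was lost without Ezh2 null library 1 (0.133), Control library 1 (0.0508) or Control library 2 (0.115). The activator subunits Psme1 and Psme2, which open the proteasome and are also induced by interferon gamma, moved with little spread. Psme1 had 80.8 and 82.2 RPKM in Double null, 147.5 and 153 RPKM in Setd2 null, 91.7 and 85.9 RPKM in Ezh2 null and 142.6 and 133.3 RPKM in Control. Psme2 had 49.1 and 56.9 RPKM in Double null, 106.1 and 102.7 RPKM in Setd2 null, 52.8 and 58.8 RPKM in Ezh2 null and 92.2 and 93.1 RPKM in Control. Both fell in Ezh2 null against Control, Psme1 by 0.63 (adjusted p = 0.00161) and Psme2 by 0.72 (adjusted p = 0.00106) on the log2 scale, under every alternative run.

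Of 16 genes of the constitutive proteasome and its other activators, 4 rose (25%, against 36.1% of all genes) and 1 fell (6.25%, against 20.5%) in Ezh2 null against Control, with a median of 0.12 against 0.18 over all genes. Those that rose included Psmb5 (0.83 ± 0.191, adjusted p = 0.00475) and Psme3 (1.03 ± 0.117, adjusted p = 6.61e-05), the activator that is not induced by interferon. The ratio of Psmb8 to Psmb5, in RPKM, was 0.052 and 0.0514 in Double null, 0.0685 and 0.0827 in Ezh2 null, 0.346 and 0.805 in Setd2 null and 0.304 and 0.432 in Control. For Psmb9 over Psmb6 it was 0.0448 and 0.0564 in Double null, 0.0837 and 0.0703 in Ezh2 null, 0.158 and 0.323 in Setd2 null and 0.162 and 0.184 in Control. Both ratios were lower in all 4 Ezh2-deleted libraries than in any Ezh2-intact one. The ratio of Psmb10 to Psmb7 was 0.0827 and 0.101 in Double null, 0.0915 and 0.125 in Ezh2 null, 0.133 and 0.214 in Setd2 null and 0.161 and 0.195 in Control, with the same order. As ratios within a library they do not depend on how libraries were scaled, and they carry no test of their own.

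**Figure D3:**
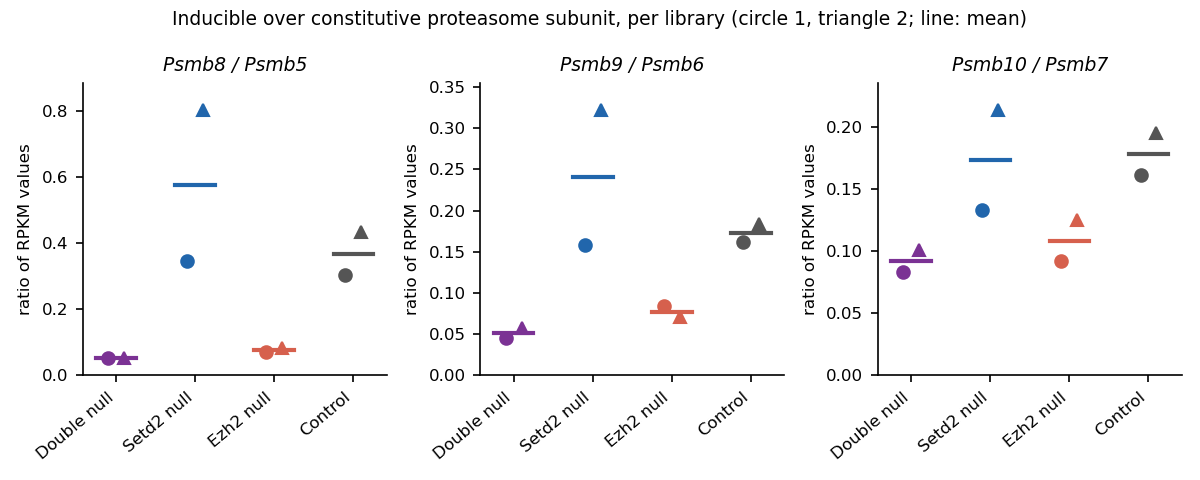
Ratio of each immunoproteasome subunit to the constitutive subunit it replaces, in RPKM over RPKM, by group; the circle is library 1, the triangle library 2 and the line their mean. In each of the 3 panels the Double null and Ezh2 null libraries lie below the Setd2 null and Control libraries.

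Both transactivators were scarce. Nlrc5 had 0.676 and 0.606 RPKM in Double null, 0.932 and 2.99 RPKM in Setd2 null, 0.734 and 0.991 RPKM in Ezh2 null and 0.84 and 1.31 RPKM in Control. Double null was below Setd2 null and Control, and library 2 of Setd2 null, at 3.21 times library 1, stood apart. Without Setd2 null, the other 6 libraries averaged 0.86 RPKM, under the filter. No comparison called Nlrc5, the nearest being Double null against Setd2 null (-0.76 ± 0.295, adjusted p = 0.0576). That value passed with quantile normalization (0.0149), and its adjusted p reached 0.264 over the alternatives. Without Setd2 null library 1 it was -1.28, in a fit where the high library 2 alone stood for Setd2 null. Ciita was at most 0.0504 RPKM in any library (2 to 19 recovered reads) and was not tested.

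Class II genes were low in all groups. The alpha chain H2-Aa was at 0 in 7 of 8 libraries and at 0.0184 RPKM in Double null library 2, and H2-Ea-ps, H2-Eb2, H2-Oa and H2-Ob were at 0 throughout. C57BL/6 mice carry a defective Ea gene, as background to the 0 of H2-Ea-ps. The beta chain H2-Ab1 had 2.01 and 2.33 RPKM in Double null, 1.24 and 1.13 RPKM in Setd2 null, 0.965 and 0.899 RPKM in Ezh2 null and 1.69 and 1.68 RPKM in Control. Its groups did not overlap, with both single deletions below Control and Double null above it. H2-Ab1 fell in Ezh2 null against Control (-0.47 ± 0.117, adjusted p = 0.00677), and it rose in Double null against Ezh2 null (0.71 ± 0.117, adjusted p = 0.006), a call lost without Double null library 2 (0.0737) and with edgeR on recovered reads (0.0684). Its rise in Double null against Setd2 null (0.53 ± 0.117, adjusted p = 0.00386) was lost with quantile normalization (0.137) and with edgeR on recovered reads (0.117). Behind these values are 48 to 141 recovered reads a library.

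H2-Eb1, the other classical beta chain, had 0.579 and 1.1 RPKM in Double null, 0.0182 and 0 RPKM in Setd2 null, 1.03 and 0.869 RPKM in Ezh2 null and 0.0198 and 0 RPKM in Control. In reads this was 48 and 93 in Double null and 96 and 69 in Ezh2 null, against 1 and 0 in Setd2 null and 1 and 0 in Control. Among these 8 libraries, the gene was thus detected with more than 1 read only in the 4 Ezh2-deleted ones. It was under the filter, and with no filter it passed as higher in Ezh2 null against Control (adjusted p = 0.00176), in Double null against Setd2 null (0.00287) and in Double null against Control (0.00301), and likewise with edgeR on recovered reads (0.000463, 0.000489 and 0.000613). The macrophage markers Lyz2, Adgre1, C1qa, C1qb and C1qc were above 0 in the same 4 libraries and at 0 in the other 4. Cd68, another macrophage marker, went the other way, with 4.24 to 11.6 RPKM in the Ezh2-deleted libraries against 21.8 to 39.5 RPKM in the others. Csf1r was highest in Ezh2 null (0.189 and 0.153 RPKM). In Double null it was lower (0.0413 and 0.0404 RPKM) than in Setd2 null (0.0897 and 0.083 RPKM). The part of these markers in the result for H2-Eb1 was not tested.

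H2-DMb1, a chain of the peptide exchange factor of class II, had 0.486 and 0.598 RPKM in Double null, 0.519 and 0.698 RPKM in Setd2 null, 2.26 and 2.31 RPKM in Ezh2 null and 0.771 and 0.333 RPKM in Control, with Ezh2 null above all others. Together with the class I-like H2-Bl it was singled out after its values were seen. H2-DMb1 was just under the filter and was higher without one in Ezh2 null against Control (adjusted p = 0.00159) and lower in Double null against Ezh2 null (adjusted p = 0.01). Its partner H2-DMa ranged from 0.441 to 0.781 RPKM. H2-Bl had 0.467 and 0.609 RPKM in Double null, 0.521 and 1.2 RPKM in Setd2 null, 0 and 0.0181 RPKM in Ezh2 null and 0.709 and 0.734 RPKM in Control. In reads that was 0 and 1 in Ezh2 null, against 25 and 26 in Control, and the 6 libraries of the other 3 groups held 20 to 50.

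Cd74, the invariant chain that guides class II molecules, had 0.484 and 0.487 RPKM in Double null, 1.07 and 2.48 RPKM in Setd2 null, 1.08 and 0.966 RPKM in Ezh2 null and 2.22 and 2.72 RPKM in Control. Both Double null libraries lay below all others. Cd74 fell in Double null against Control (-1.22 ± 0.211, adjusted p = 0.00104) and against Setd2 null (-0.85 ± 0.211, adjusted p = 0.00718), and in Ezh2 null against Control (-0.77 ± 0.211, adjusted p = 0.0111) except without Control library 2 (0.0737). Cd74 and H2-Eb1 thus differed in direction in the same comparisons. H2-Ke6, a steroid dehydrogenase gene of the region, had 24.7 and 30 RPKM in Double null and 24.2 and 31.7 RPKM in Ezh2 null, against 15.7 and 15 RPKM in Setd2 null and 12.7 and 16 RPKM in Control. It rose in Ezh2 null against Control (0.91 ± 0.168, adjusted p = 0.00137) under every alternative run.

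**Figure D4:**
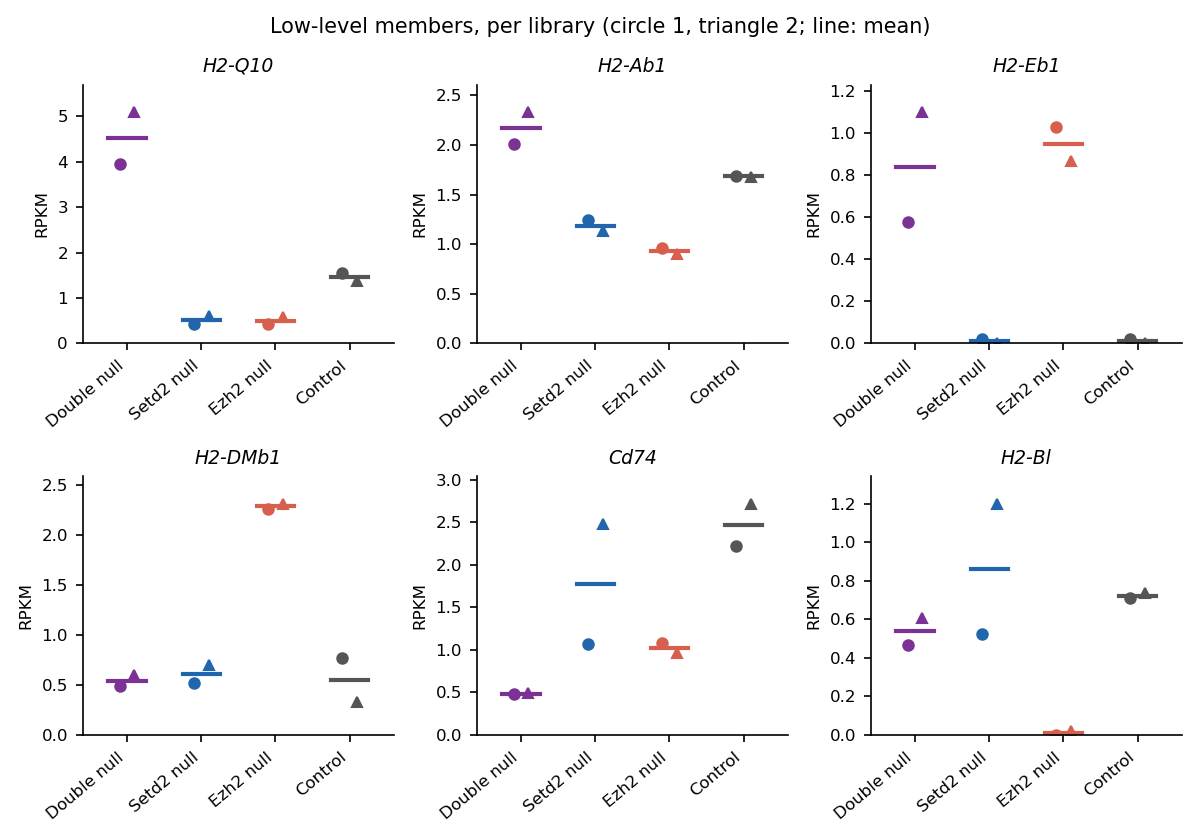
Levels in RPKM of 6 members near the filter, on linear axes from 0, by group; the circle is library 1, the triangle library 2 and the line their mean. H2-Q10 is highest in Double null (3.96 and 5.09 RPKM), H2-DMb1 in Ezh2 null (2.26 and 2.31 RPKM), and H2-Eb1 is near 0 in Setd2 null and Control.

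H2-Q10, a class I chain known in mice as a secreted product of liver, ran against its relatives. It had 3.96 and 5.09 RPKM in Double null, 0.432 and 0.609 RPKM in Setd2 null, 0.415 and 0.585 RPKM in Ezh2 null and 1.55 and 1.38 RPKM in Control, which is 290 and 381 reads in Double null and 21 to 69 reads in each of the others. Double null was above Control, and both single deletions were below it with values that overlapped. H2-Q10 fell in Ezh2 null against Control (-0.72 ± 0.142, adjusted p = 0.00206) and rose in Double null against Ezh2 null (1.88 ± 0.142, adjusted p = 6.98e-05), against Setd2 null (1.86 ± 0.142, adjusted p = 5.6e-06) and against Control (1.16 ± 0.142, adjusted p = 0.000127). These 4 calls held under every alternative that tested it, and the value of -0.70 in Setd2 null against Control missed the threshold with an adjusted p of 0.0609. Its interaction was 2.57 ± 0.201 (adjusted p = 0.000267). H2-Q10 passed the filter only through Double null, since the other 6 libraries averaged 0.829 RPKM, so its presence among the members tested rests on the group where it is high. With no filter its interaction had an adjusted p of 0.00425.

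The other 3 members with a called interaction were H2-Ab1 (1.01 ± 0.166, adjusted p = 0.012), H2-T22 (-0.90 ± 0.161, adjusted p = 0.019) and B2m (-1.32 ± 0.243, adjusted p = 0.0211). For H2-T22 and B2m, Setd2 null lay above Control while Double null lay below Ezh2 null. H2-T22 was the member called in Setd2 null against Control (0.70 ± 0.114, adjusted p = 0.0251), and that call was lost without Setd2 null library 1 (0.0503), Setd2 null library 2 (0.0596), Control library 1 (0.253) or Control library 2 (0.226), and in a fit of only the groups compared (0.119). Its interaction was lost without any 1 of the libraries of Ezh2 null, Double null or Control, with adjusted p-values between 0.0593 without Ezh2 null library 1 or 2 and 0.122 without Control library 1 (0.0617 and 0.0819 without Double null libraries 1 and 2, and 0.105 without Control library 2). The interaction of B2m was lost without Ezh2 null library 1 (0.0679), Double null library 2 (0.0807), Control library 1 (0.131) or Control library 2 (0.0933), and with no filter (0.0529). That of H2-Ab1 was lost without Double null library 2 (0.0674), Control library 1 (0.059) or Control library 2 (0.0605), and with edgeR on recovered reads (0.147). Of the 4, H2-Q10 and H2-Ab1 stayed called without Ezh2 null library 1, and H2-Q10 alone without Double null library 2, Control library 1 or Control library 2. H2-DMb1, under the filter with all libraries, passed it and was called without Double null library 2 (-1.21) and without Control library 1 (-1.36). In those fits it passed the filter through Ezh2 null, the group where it is high (2.26 and 2.31 RPKM). With all libraries its interaction was not called, either in limma with no filter (-1.16, adjusted p = 0.0526) or with edgeR on recovered reads (adjusted p = 0.199). H2-T24 joined the called members without Setd2 null library 1 (-1.30).

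Members also differed between the 2 libraries of a group. Library 2 was above library 1 for 23 of 31 members in Double null, 22 in Ezh2 null, 23 in Setd2 null and 23 in Control, against 47% to 50.5% of all genes, and 14 members were higher in library 2 in all 4 groups. Among these were H2-K1, H2-D1, H2-Q4, H2-Q6, H2-Q7, Tap1, Tap2, Tapbp, Psmb8, Psmb9 and Psmb10. The median log2 ratio of library 2 to library 1 over the members was 0.35 in Setd2 null and 0.14 to 0.18 in the other 3 groups. The same number marks different pools, and the labels do not state that it pairs libraries. Over all tested genes, however, the deviations of same-numbered libraries correlated at 0.933 for Ezh2 null with Double null. The value was 0.358 for Setd2 null with Control and 0.105 to 0.155 for the other pairs of these groups. The main fit held no replicate block, and what same-numbered libraries share was not tested.

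In the second table, Ezh2 K735R against wild-type Ezh2, 34 members passed the filter and 0 were called in either direction, against 0.00757% of all 13203 genes. The median log2 fold change was 0.27 over the members and -0.01 over all genes, with 25 of 34 values above 0. At an unadjusted p of 0.05 in edgeR, 7 of 34 members passed, and DESeq2 and limma on log2 CPM called 0 of the 34 after adjustment, although DESeq2 called 289 of all 13203 genes. Values are CPM, which are counts scaled to library size, and total counts were 30404095 and 29221905 in Ezh2 K735R and 28831228 and 37482322 in wild-type Ezh2.

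H2-T23 had 118.7 and 118.7 CPM in Ezh2 K735R, against 44.5 and 80.2 CPM in wild-type Ezh2 (log2 fold change 0.93, adjusted p = 0.471). H2-T22 had 59.8 and 52.2 CPM in Ezh2 K735R, against 25 and 38.7 CPM in wild-type Ezh2 (0.81, adjusted p = 0.443). The groups did not overlap for either gene, but the wild-type libraries lay far apart. H2-K1 had 402.3 and 443.8 CPM in Ezh2 K735R, against 288.1 and 381.7 CPM in wild-type Ezh2, and H2-D1 had 450.6 and 442.3 CPM against 327 and 412.6 CPM in wild-type Ezh2. B2m had 276.5 and 262.8 CPM in Ezh2 K735R and lay within the 206 and 299.6 CPM of wild-type Ezh2. Psmb8 had 6.63 and 5.37 CPM in Ezh2 K735R, against 1.43 and 4.74 CPM in wild-type Ezh2, which is 198 and 155 reads against 43 and 176 reads in wild-type Ezh2.

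Tap2 had 31.1 and 25 CPM in Ezh2 K735R, against 16.4 and 18.8 CPM in wild-type Ezh2 (0.67, adjusted p = 0.409), without overlap. Tap1 (45.3 and 31 CPM in Ezh2 K735R, 33.3 and 36.5 CPM in wild-type Ezh2), Tapbp (251.4 and 267.3 CPM in Ezh2 K735R, 256.2 and 334 CPM in wild-type Ezh2) and Nlrc5 (3.38 and 1.9 CPM in Ezh2 K735R, 1.1 and 2.05 CPM in wild-type Ezh2) overlapped. Psmb9 had 2.95 and 1.49 CPM in Ezh2 K735R, against 1 and 1.43 CPM in wild-type Ezh2, and Psmb10 had 12.3 and 11.8 CPM against 10.1 and 9.75 CPM in wild-type Ezh2. Among class II genes, Cd74 had 4.45 and 4.85 CPM in Ezh2 K735R, against 3.34 and 8.29 CPM in wild-type Ezh2. H2-Ab1 had 1 and 0.97 CPM in Ezh2 K735R, against 0.3 and 0.0539 CPM in wild-type Ezh2 (30 and 28 reads against 9 and 2 reads in wild-type Ezh2). H2-Eb1 had 0.469 and 0.381 CPM in Ezh2 K735R, against 0.7 and 0.108 CPM in wild-type Ezh2. In reads this was 14 and 11 in Ezh2 K735R, against 21 and 4 in wild-type Ezh2. Ciita had 0.268 and 0.277 CPM in Ezh2 K735R, against 0.2 and 0.673 CPM in wild-type Ezh2.

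With all libraries in the fit no member was called. Members passed only in fits that left out 1 wild-type library, and not in those that left out 1 Ezh2 K735R library. Library 2 was above library 1 for 26 of 34 members in wild-type Ezh2 and for 13 of 34 in Ezh2 K735R, against 49.9% and 49.8% of all genes. Without wild-type library 2, 11 of 36 members were called higher (30.6%, against 7.71% of all genes in that fit) and 0 lower (against 4.11%), among them H2-T23 (1.43, adjusted p = 1.78e-05), H2-T22 (1.18, adjusted p = 0.000542), H2-K1 (0.57, adjusted p = 0.00312) and Psmb8 (2.07, adjusted p = 0.00989). Without wild-type library 1, 3 of 35 members were called, 2 higher (5.71%, against 2.79% of all genes in that fit) and 1 lower (2.86%, against 1.98%), namely H2-T23 (0.56, adjusted p = 0.00734) and H2-T22 (0.53, adjusted p = 0.0461), which were higher, and Tapbp (-0.37, adjusted p = 0.0326), which was lower. In these fits the lone wild-type library is assumed to vary like the Ezh2 K735R libraries. Wild-type library 1 also differed from library 2 in the basal keratin Krt5 (3986 against 1658 CPM) and the luminal keratin Krt8 (1951 against 3645 CPM), and the part of such differences in the members' values was not tested.

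**Figure D5:**
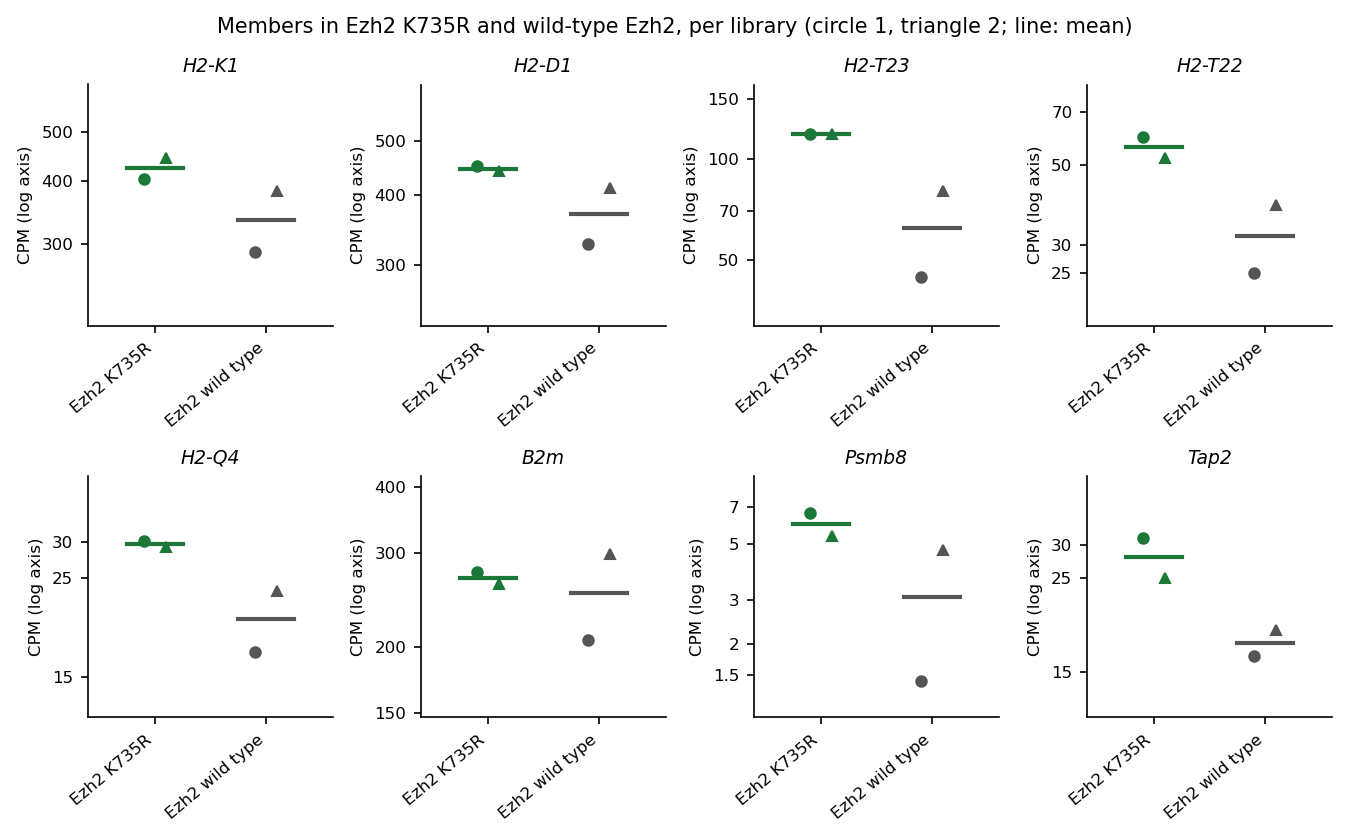
Levels of 8 members in CPM on a log axis, in Ezh2 K735R and wild-type Ezh2; the circle is library 1, the triangle library 2 and the line their mean. H2-T23 lies at 118.7 CPM in both Ezh2 K735R libraries, against 44.5 and 80.2 CPM in wild-type Ezh2, and B2m overlaps between the groups.

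Genes that act upstream of the members were counted from lists of known pathway genes. Of 13 tested interferon receptor and signalling genes, 6 fell (46.2%, against 20.5% of all genes) and 0 rose (against 36.1%) in Ezh2 null against Control, with a median of -0.38. In Double null against Setd2 null 8 fell (61.5%, against 19.4%) and 0 rose (against 35.6%), and in Double null against Control 8 fell (61.5%, against 20.0%) and 1 rose (7.69%, against 34.2%), with medians of -0.62 and -0.63. Ifngr1, the ligand-binding chain of the interferon gamma receptor, had 50.3 and 49.5 RPKM in Double null, 229.1 and 210.2 RPKM in Setd2 null, 45.3 and 44.4 RPKM in Ezh2 null and 158.5 and 145.1 RPKM in Control. Its Ezh2-deleted libraries lay far below the others, with log2 fold changes of -1.74 ± 0.121 in Ezh2 null against Control (adjusted p = 2.6e-06) and -2.12 ± 0.121 in Double null against Setd2 null (adjusted p = 8.12e-07). Irf1, a transcription factor of class I promoters, had 11.5 and 14.6 RPKM in Double null, 32.8 and 31.6 RPKM in Setd2 null, 11.9 and 14.1 RPKM in Ezh2 null and 27.7 and 24.9 RPKM in Control (-0.96 ± 0.146 in Ezh2 null against Control, adjusted p = 0.000412). Stat2 (-1.35, adjusted p = 0.000445) and Irf9 (-1.10, adjusted p = 5.24e-05), which act together downstream of type I interferons, fell in the same comparison under every alternative. In Setd2 null against Control, in the interaction and in Ezh2 K735R against wild-type Ezh2, 0 of these 13 genes were called.

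Other lists had calls in both directions in Ezh2 null against Control, where 36.1% of all genes were higher and 20.5% lower. Of 11 RFX, NF-Y and NF-kB factors, 1 rose (Nfyc, 0.90 ± 0.155, adjusted p = 0.000923) and 1 fell (Nfya, -0.40 ± 0.142, adjusted p = 0.0368) in that comparison, 9.09% each way. The call of Nfya was lost without Ezh2 null library 1 (0.0924), Ezh2 null library 2 (0.108), Control library 1 (0.0855) or Control library 2 (0.185), and with no filter (0.0568). Of 14 peptidases and chaperones of peptide supply, 5 rose (35.7%) and 2 fell (14.3%), with the peptide-degrading peptidase Thop1 at 24.6 and 32.4 RPKM in Ezh2 null, against 8.47 and 7.78 RPKM in Control (1.68 ± 0.167, adjusted p = 2.91e-05). Of 7 genes of lysosomal processing for class II, 3 rose (42.9%), Ifi30 among them (0.95 ± 0.113, adjusted p = 8.96e-05), and 1 fell (14.3%), the protease Ctsl (-1.75 ± 0.143, adjusted p = 7.82e-06). Of 11 class I-like genes outside the H2- names, 3 rose (27.3%) and 5 fell (45.5%). Azgp1, a secreted lipid-binding relative, had 6.96 and 6.86 RPKM in Ezh2 null, against 0.201 and 0.2 RPKM in Control (2.72 ± 0.119, adjusted p = 1.42e-07), while Mill1 had 0.0118 and 0.151 RPKM in Ezh2 null, against 7.75 and 9.52 RPKM in Control (-3.15 ± 0.208, adjusted p = 1.82e-06). Of 3 tested co-stimulatory or checkpoint ligands, Icosl rose (0.99 ± 0.151, adjusted p = 0.000427) and Tnfsf9 fell (-0.93 ± 0.145, adjusted p = 0.0005).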

How the data were processed

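RNA from 12 libraries of prostate organoids was analysed, and 3 ChIP and input samples were not analysed here. The first table holds RPKM values that the authors deposited for 8 libraries. The second holds whole-number read counts per gene that the authors deposited for 4 libraries. The submitters' processing notes name BWA, Bowtie, RSEM, SICER and mm10, with no role for each. Strandedness and the division of reads between near-identical genes are, in the sources used here, not given.

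RPKM values were tested as log2(RPKM + 1) with limma 3.58.1 in R 4.3.3, in one fit of 4 groups without a replicate block, over the 11338 genes that averaged 1 RPKM or more. A fold change on this scale understates that of low genes. Counts were tested with edgeR 4.0.16 (quasi-likelihood, TMM) over 13203 genes. P-values were two-sided and adjusted by Benjamini-Hochberg over all genes tested, with a threshold of 0.05. Dividing the RPKM values by the value of 1 read gave whole reads, within 0.01 reads, for 99.97% of the 13748 genes above 0 in all libraries, and edgeR on these reads was an alternative, as was DESeq2 1.42.0 for the count table. Other alternatives were scaling, pseudocount (0.1), filters, the samples fitted, a replicate block and leaving out each library. The scripts were tested on simulated data.

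Values in every library are given for 15 members set by name and for up to 8 further members per comparison, smallest p first, among those called with non-overlapping libraries and a log2 fold change of 0.5 or more in size. From other lists up to 4 called genes each are named. The members and lists were chosen with earlier results of these data known. A further allele of the genotypes and 1 gene of the pathway lists are not reported here.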

Additional observations from a re-analysis of the deposited data

Results flagged for a closer look

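The effect of Setd2 deletion differed between Ezh2-deleted and Ezh2-intact organoids, by the interaction term of limma, for 4 members. The differences in log2 fold change were 2.57 for H2-Q10, 1.01 for H2-Ab1, -0.90 for H2-T22 and -1.32 for B2m. H2-Q10 passed the filter on low values only through Double null, its highest group (0.829 RPKM on average in the other 6 libraries), and with no filter its adjusted p was 0.00425. Over the alternatives that tested it, its adjusted p was at most 0.00608. The other 3 each lost their call without at least 1 library. With 2 libraries a group, no group was large enough to be searched for single samples that stand apart.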

How the results depend on the processing

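No member's called direction reversed under the alternatives run. The count of members called in Setd2 null against Control was 1, and it was 0 in a fit of only the groups compared and 0 to 0 with single libraries left out. The mean of at least 5 RPKM, which tests fewer members by construction, gave 10 calls in place of 16 in Ezh2 null against Control, 13 in place of 20 in Double null against Control, 1 in place of 3 in Double null against Ezh2 null and 2 in place of 4 in the interaction. With edgeR on recovered reads, Double null against Ezh2 null had 5 calls. Leaving out single libraries gave 12 to 14 calls in Ezh2 null against Control, 22 to 28 in Double null against Setd2 null, 14 to 19 in Double null against Control, 2 to 3 in Double null against Ezh2 null, 1 to 5 in the interaction and 0 to 11 in Ezh2 K735R against wild-type Ezh2. Quantile normalization moved the share of higher genes among all genes called to 50.3% in Ezh2 null against Control (63.8% without it), 48.7% in Double null against Setd2 null (64.7%) and 48.4% in Double null against Control (63%). Replicate numbers are not stated to pair libraries, and the deviations of same-numbered libraries correlated at 0.933 for Ezh2 null with Double null, 0.358 for Setd2 null with Control and 0.101 for Ezh2 K735R with wild-type Ezh2. With the replicate block, calls numbered 4 in Setd2 null against Control, 22 in Ezh2 null against Control, 5 in Double null against Ezh2 null, 25 in Double null against Control, 9 in the interaction and 0 in Ezh2 K735R against wild-type Ezh2. H2-D1 was then called higher in Ezh2 null against Control (0.35, adjusted p = 0.0496) and lower in Double null against Setd2 null (-0.43, adjusted p = 0.0238). Over all genes of the count table, 1 was called by edgeR, 289 by DESeq2, 2 by limma, 4 with the replicate block, and 0 to 1595 with single libraries left out. For the RPKM values, the shares of all genes called with the replicate block, with edgeR on recovered reads or with left-out libraries are not given here. The counts of members in those fits thus cannot show whether a change concerned the members or all genes. Where no cause follows from the setting itself, the cause was not tested. Depth limits Ciita, H2-Aa, H2-Eb1 and H2-Bl.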

Other observations

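Of 11 class I-like genes outside the H2- names, 3 were called higher (27.3%, against 3.79% of all genes) and 2 lower (18.2%, against 2.70%) in Double null against Ezh2 null. All of these calls but that of Cd1d1 were lost under at least 1 alternative. Cd1d1, which presents lipids to natural killer T cells, had 1.62 and 1.67 RPKM in Double null, 1.37 and 0.736 RPKM in Setd2 null, 4.9 and 5.17 RPKM in Ezh2 null and 1.44 and 0.751 RPKM in Control. Ezh2 null stood above the other 3 groups, which overlapped or lay close together. Cd1d1 fell in Double null against Ezh2 null (-1.19 ± 0.189, adjusted p = 0.00492 in limma), with an adjusted p of at most 0.038 over the alternatives. H60c, a ligand of the natural killer receptor NKG2D, had 5.73 and 5.37 RPKM in Double null, 3.95 and 1.89 RPKM in Setd2 null, 2.89 and 2.09 RPKM in Ezh2 null and 0.468 and 0.238 RPKM in Control. Every library with a deletion lay above both Control libraries. Other genes of the list did not share this. H60b, under the filter, had 1.19 and 1.31 RPKM in Control, against 0.0142 to 0.202 RPKM in the libraries with a deletion. Ulbp1 had 2.6 to 5.24 RPKM in the Ezh2-deleted libraries, against 6.38 to 8.32 RPKM in the others. Raet1e ranged from 1.98 to 3.78 RPKM, with Ezh2 null overlapping Control. H60c rose in Ezh2 null against Control (1.36 ± 0.232, adjusted p = 0.000846 in limma), with an adjusted p of at most 0.0101 over the alternatives. It was also called higher in Setd2 null against Control (1.49 ± 0.232, adjusted p = 0.0214), but not without Setd2 null library 1 (0.076), Control library 1 (0.123) or Control library 2 (0.207), with no filter (0.101) or in a fit of only the groups compared (0.119). In Double null against Ezh2 null its value was 0.92 ± 0.232 (adjusted p = 0.0473), lost without any 1 of the 4 libraries compared, with adjusted p-values of 0.0653 without Ezh2 null library 1, 0.23 without Ezh2 null library 2, 0.169 without Double null library 1 and 0.161 without Double null library 2.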
